A study of Caenorhabditis elegans with 12 samples.

Results

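The respiratory chain of Caenorhabditis elegans is described here through 48 genes of the 46739 in the count table. They were chosen by name as subunits of complexes I to V or cytochrome c. Mitochondrial DNA encodes 12 of them, which are 7 subunits of complex I, 1 of complex III, 3 of complex IV and 1 of complex V. The other 36 are nuclear and comprise 8 subunits of complex I, 4 of complex II, 6 of complex III, 7 of complex IV, 9 of complex V and 2 cytochromes c. All 48 had enough reads to be tested.

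RNA of whole worms at day 10, grown at 20 °C, was sequenced in 12 libraries. Wild-type N2 worms, daf-2 mutants, spr-4;spr-3 mutants (the double mutant below) and spr-4;spr-3;daf-2 mutants (the triple mutant) gave 3 biological replicates apiece. All strains share the N2 background, and no source used here names the alleles. Worms with a weakened DAF-2, the receptor of insulin-like signals, live long, and SPR-3 and SPR-4 are zinc finger regulators likened to the vertebrate repressor REST.

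Mitochondria make ATP by passing electrons from NADH through complex I, or from succinate through complex II, to ubiquinone and then through complex III, cytochrome c and complex IV to oxygen. The protons pumped on the way drive complex V, the ATP synthase. Complexes I, III, IV and V mix subunits encoded on the small mitochondrial genome with subunits encoded in the nucleus and imported, so their assembly needs products of both genomes, while complex II and cytochrome c are wholly nuclear. In worms, lowered function of several of these subunits changes lifespan (isp-1, nuo-6, cyc-1 and atp-3 are well known for longer life, gas-1 and mev-1 for shorter life).

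The libraries hold 11892808 counts (daf-2 replicate 2) to 46493665 counts (daf-2 replicate 3). Pairs of libraries of 1 genotype correlated at 0.973 to 0.989 on the log2 scale, and pairs of different genotypes at 0.944 to 0.976. Tissue markers differ between the genotypes, and whole-worm RNA cannot tell fewer cells of a type from less RNA per cell. Summed oocyte and early embryo markers (13 genes) ran from 6720 to 8840 CPM for N2, 3470 to 3870 for daf-2, 7610 to 8080 for the double mutant and 5640 to 6670 for the triple mutant. CPM is the count over the library total times its TMM factor, multiplied by 1000000. Replicate 2 of the double mutant stood apart in the summed markers of 2 tissues. Its body wall muscle markers (10 genes) summed to 6180 CPM against 3380 and 3250 in the other replicates, and its intestine markers (10 genes) to 18100 against 5770 and 7940. Few genes carry these sums. The yolk protein genes vit-2 and vit-6 had means of 6650 and 2830 CPM for the double mutant and 19300 and 9760 for N2. The muscle marker act-4 had 2570 and 4660. No marker of these 3 lists was at 0 in any genotype.

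Of the 12 genes of mitochondrial DNA 5 rose in daf-2 against N2, where 9.58% of all tested genes were called higher (edgeR adjusted p under 0.05). Of these 5, 3 were called lower in the triple mutant against daf-2 (6.65% of all tested genes), calls that single libraries could undo. The 12 genes together made up 0.847, 0.696 and 0.746% of the counts in the N2 replicates and 1.06, 1.32 and 1.35% for daf-2. They made up 1.19, 0.836 and 0.948% for the double mutant and 0.826, 0.833 and 0.98% for the triple mutant. All daf-2 libraries thus lay above all of N2 and of the triple mutant, while the double mutant overlapped each other genotype. These shares, and the nuclear ones that follow, are of library totals without the TMM factors used for CPM. Those factors were 0.889, 0.915 and 0.846 for N2 and 1.21, 1.01 and 1.18 for the double mutant. Scaled shares would thus stand lower for the double mutant relative to N2. The 36 nuclear members together held steadier shares of 0.603 ± 0.0471%, 0.649 ± 0.00595%, 0.654 ± 0.0154% and 0.649 ± 0.0113% for N2, daf-2, the double and the triple mutant (mean ± SD, n = 3 each). The ratio of the summed counts, mitochondrial DNA to nuclear, was 1.27 ± 0.137 for N2, 1.91 ± 0.243 for daf-2, 1.52 ± 0.304 for the double mutant and 1.35 ± 0.131 for the triple mutant. The double mutant replicates gave 1.86, 1.28 and 1.41. A single gene, atp-1, takes much of the nuclear sum, and the ratio without it, a choice made after the values were seen, was 2.51, 2.12 and 2.58 for N2, 2.91, 3.9 and 3.52 for daf-2, 2.88, 2.32 and 2.18 for the double and 2.41, 2.29 and 2.96 for the triple mutant. All daf-2 libraries then still lie above N2, but daf-2 replicate 1 lies below triple mutant replicate 3. They also lie above the double mutant, which they did not with atp-1 included (daf-2 replicate 1 at 1.63, double mutant replicate 1 at 1.86). The sums are a description and were given no test.

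**Figure D1:**
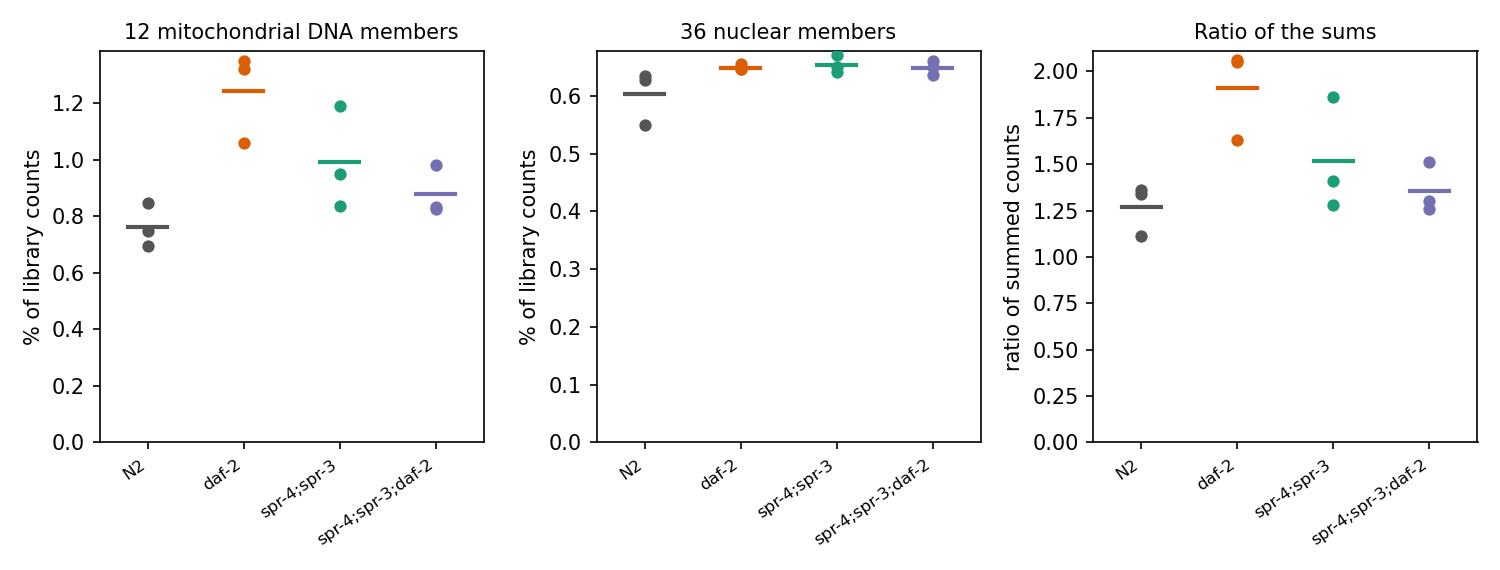
Share of library counts, without TMM factors, from the 12 mitochondrial DNA members (left, %) and the 36 nuclear members (middle, %), and the ratio of the sums (right). Points are libraries and bars are means of 3 replicates. The daf-2 libraries lie at 1.06 to 1.35% for the mitochondrial DNA members, above all N2 and triple mutant libraries.

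Among these 12 genes the counts per length span a wide range. How evenly the cDNA step captured the transcripts was not tested, so these values rank counts rather than RNA copies. The 12 genes are all annotated on the same strand. In N2 the cytochrome c oxidase subunit gene ctc-2 had 1980 ± 315 CPM per kilobase of exon, the complex I subunit gene nduo-6 1710 ± 394, the core oxidase subunit gene ctc-1 1550 ± 95.9 and the ATP synthase subunit gene atp-6 1090 ± 170. These standard deviations (n = 3) leave the order of ctc-2, nduo-6 and ctc-1 unresolved. The other members lay between 690 ± 52.7 for ctb-1, the cytochrome b of complex III, and 182 ± 47 for nduo-3, a complex I subunit. In daf-2 nduo-6 had 3300 ± 623 CPM per kilobase, the highest mean of the 48 members there. Of all counts on these genes, ctc-1 alone took 24.1 to 33% in the 12 libraries, and nduo-3 0.34 to 0.778%.

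**Figure D2:**
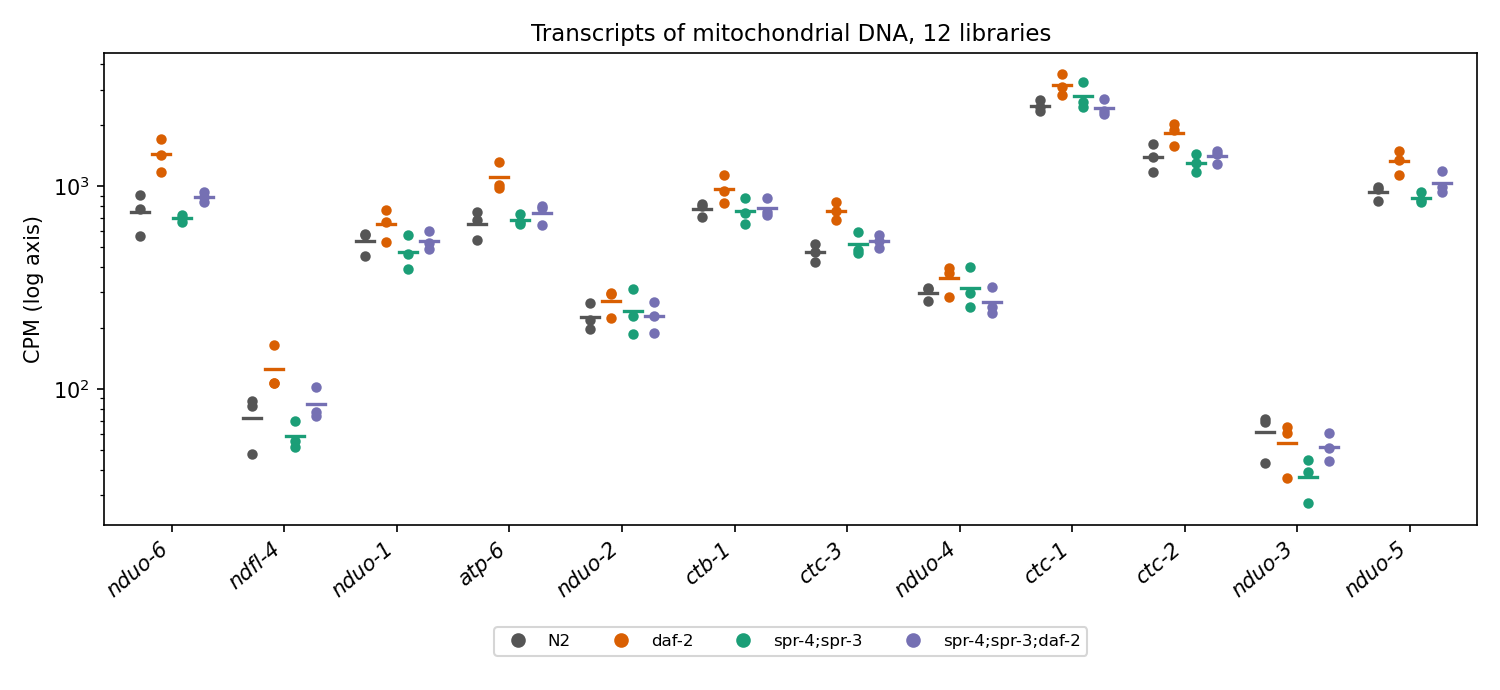
CPM (log axis) of the 12 mitochondrial DNA members, in their order on the molecule. Points are libraries and bars are means of 3 replicates, coloured by genotype. For nduo-6, ndfl-4, atp-6, ctb-1, ctc-3, ctc-1 and nduo-5 every daf-2 library lies above every N2 library.

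In daf-2 against N2 edgeR called 20.6% of all 18342 tested genes at an adjusted p under 0.05 (9.58% higher, 11% lower). Of the mitochondrial DNA members 5 of 12 were higher and 0 lower, with a median log2 fold change of 0.37 against 0.06 over all tested genes. Of the nuclear members 3 of 36 were higher and 1 lower (median 0.02), so their share called lay below that of all genes. The nuclear count of 4 falls to 1 without daf-2 replicate 1 or 3 or N2 replicate 1, and to 2 without daf-2 replicate 2 or N2 replicate 3. With DESeq2 size factors in place of TMM this nuclear count was 2 higher and 2 lower. The libraries did not overlap, with daf-2 higher, for 7 of 12 mitochondrial DNA and 7 of 36 nuclear members, against 20.4% of all tested genes. They did not overlap with daf-2 lower for 0 and 6, against 19.5%.

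Complex I, which takes electrons from NADH, held both the largest and the only negative estimate among the mitochondrial DNA members. The gene nduo-6 gave 907, 566 and 774 CPM for N2 and 1430, 1170 and 1720 for daf-2, with 664, 725 and 696 for the double and 833, 942 and 884 for the triple mutant. Every daf-2 library was above all others. It lies at 113 to 549 on the molecule (WBcel235, used for all positions here), and from N2 to daf-2 it rose by 0.94 ± 0.18 on the log2 scale (edgeR adjusted p = 0.0011, errors of fold changes being standard errors). The small neighbouring subunit gene ndfl-4 (549 to 783) gave 87.1, 47.6 and 82.5 CPM for N2, 107, 107 and 165 for daf-2, 55.4, 69.7 and 51.8 for the double mutant and 77, 102 and 73.9 for the triple mutant. Its daf-2 libraries were likewise the highest, and it rose by 0.8 ± 0.22 (edgeR adjusted p = 0.017). The libraries of nduo-5 (11691 to 13272) gave 987, 848 and 966 CPM for N2, 1140, 1500 and 1350 for daf-2, 932, 851 and 835 for the double mutant and 987, 935 and 1190 for the triple mutant, with daf-2 above N2 in all libraries (0.51 ± 0.15, edgeR adjusted p = 0.021). The calls for ndfl-4 and nduo-5 rest on single libraries. Without daf-2 replicate 3, or without N2 replicate 2, the count of mitochondrial DNA members called falls from 5 to 3, with both of these lost. The gene nduo-5 is also lost without daf-2 replicate 2 and with no filter on low counts. The gene nduo-3 lies next to nduo-5 but gave 71.6, 43 and 68.7 CPM for N2 and 36.3, 65.2 and 60.9 for daf-2. Its groups overlap, and it is the only mitochondrial DNA member with a negative estimate here (-0.18 ± 0.24, edgeR adjusted p = 0.66). The remaining subunit genes nduo-1, nduo-2 and nduo-4 had log2 fold changes of 0.29, 0.27 and 0.23 and did not pass.

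The subunits of the later complexes that mitochondrial DNA encodes all had positive estimates in daf-2. For ctc-3 (5678 to 6449), a core subunit of the oxidase, the libraries gave 521, 425 and 476 CPM for N2, 680, 752 and 834 for daf-2, 597, 471 and 487 for the double mutant and 495, 573 and 540 for the triple mutant. No library of another genotype reached those of daf-2, and the rise from N2 was 0.67 ± 0.14 (edgeR adjusted p = 0.003). For atp-6 (2634 to 3235), which helps form the proton channel of the ATP synthase, they gave 743, 543 and 680 CPM for N2, 986, 1010 and 1320 for daf-2, 730, 653 and 670 for the double mutant and 642, 784 and 796 for the triple mutant. Again daf-2 stood above every other library (0.75 ± 0.16 against N2, edgeR adjusted p = 0.0029). The calls for nduo-6, ctc-3 and atp-6 held under all alternatives and without any single library. The genes ctc-1 (0.35 ± 0.15), ctc-2 (0.4 ± 0.16) and ctb-1 (0.34 ± 0.16) did not pass (edgeR adjusted p = 0.12, 0.082 and 0.15).

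Estimates can be set side by side for 3 pairs of genes that overlap on the molecule, with no test of the differences. The genes nduo-6 (0.94 ± 0.18) and ndfl-4 (0.8 ± 0.22) share 1 base, atp-6 (0.75 ± 0.16) and nduo-1 (0.29 ± 0.17) share 2 bases, and nduo-5 (0.51 ± 0.15) and nduo-3 (-0.18 ± 0.24) share 1. Of the mitochondrial ribosomal RNA genes the longer stood at 0.46 ± 0.18 on the log2 scale (edgeR adjusted p = 0.084) and the shorter -0.07 ± 0.19 (0.85), so neither passed. Deviations of log2 CPM from the genotype means, over 12 libraries that share depth and scaling, correlated at a median r of 0.73 for pairs of mitochondrial DNA members, 0.25 for pairs of nuclear members and -0.15 for mixed pairs. The member closest to the mean of the other 11 was ctc-2 (r = 0.98), and the farthest was nduo-6 (0.43).

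With spr-3 and spr-4 mutated besides daf-2, 3 of the 12 mitochondrial DNA members fell. In the triple mutant against daf-2 edgeR called 13.4% of all tested genes (6.76% higher, 6.65% lower). Of the 12 mitochondrial DNA members 0 were higher and 3 lower, and all 12 estimates were negative (median -0.38, against -0.01 over all tested genes). The libraries of 6 of them did not overlap, with the triple mutant lower, against 18.1% of all tested genes (0 of 12 with it higher, against 17.9%). The 3 called are nduo-6 (-0.7 ± 0.18), atp-6 (-0.58 ± 0.16) and ctc-3 (-0.5 ± 0.14), with edgeR adjusted p = 0.014, 0.025 and 0.03, and their values in each library stand above. This count is fragile: it falls from 3 to 0 without daf-2 replicate 3, without triple mutant replicate 1 or without triple mutant replicate 3. Without daf-2 replicate 2 it is 2, with ctc-3 lost. Both comparisons use the same daf-2 libraries, so they are not independent of each other. Within each, the mitochondrial DNA members varied together between libraries (median r of 0.73 for pairs). Their counts are thus not counts of independent genes. Beside these values, daf-2 had 11 of 13 oocyte and early embryo markers lower (0 higher) against N2, where 11% of all tested genes were lower. The triple mutant had 10 of 13 higher (0 lower) against daf-2. Intestine markers were 0 higher and 5 lower of 10 in daf-2 against N2, and 1 higher and 2 lower in the triple mutant against daf-2. Their summed level, carried mainly by vit-2 and vit-6, was 14800 to 22800 CPM for daf-2 against 24000 to 35200 for N2. The part of these tissues in the result was not tested.

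In the other comparisons edgeR called 0 of the 12. In the triple against the double mutant (14.9% of all tested genes called) the median was 0.11, and 1 member had an unadjusted p under 0.05, with 0 called by DESeq2 and by limma-voom. The libraries did not overlap, with the triple mutant higher, for 3 of 12 (15.6% of all tested genes) and lower for 0 (15.1%). In the double mutant against N2 (11.7% called) the median was -0.06, with 1 at an unadjusted p under 0.05, 1 called by DESeq2 and 0 by limma-voom, and without daf-2 replicate 1 or N2 replicate 2 edgeR called 1. In the triple mutant against N2 (22.2% called) the median was 0.02, with 0 at an unadjusted p under 0.05 and 0 called by either tool. In these last 2 comparisons the libraries of 0 of the 12 were free of overlap in either direction. For the difference between the daf-2 effects in the 2 backgrounds, the interaction (8.32% called, 4.89% higher and 3.43% lower), the median was -0.32. Here 4 members had an unadjusted p under 0.05, DESeq2 called 2 and limma-voom 1, and edgeR called 1 without double mutant replicate 2. Of all 18342 tested genes, 5200, 4929, 6266 and 4295 had an unadjusted edgeR p under 0.05 in these comparisons, in the order given. The unadjusted member counts are to be read beside these, not beside the shares called. By edgeR the daf-2 effect on mitochondrial DNA transcripts is thus not shown to differ between the backgrounds.

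The triple against the double mutant gives the effect of daf-2 where spr-3 and spr-4 are mutated. There edgeR called 19.4% of the nuclear members and 14.9% of all tested genes. Of the 36 nuclear members 1 was higher and 6 lower (median -0.05, against 0.01 over all tested genes, of which 7.02% were higher and 7.92% lower). The libraries did not overlap, with the triple mutant lower, for 9 of the 36 (15.1% of all tested genes), and with it higher for 3 (15.6%). Of the 6 that fell, 5 lie on chromosome X, which holds 6 of the 36. They are gas-1, sdha-1, ucr-2.1, ucr-2.2 and asb-2, and the libraries of the groups do not overlap for any of them. The last X-linked member, asg-2, gave 21.5, 22.2 and 23.4 CPM for the double and 13.9, 20.9 and 14.3 for the triple mutant, without overlap, but did not pass (-0.45 ± 0.17, edgeR adjusted p = 0.088). Of the 30 autosomal members 1 was higher and 1 lower. The median log2 fold change was -0.7 for the X-linked and 0.03 for the autosomal members. Over all tested genes it was -0.12 on X (2528 genes, 14% lower and 6.01% higher) and 0.02 on autosomes (15670 genes, 6.99% lower and 7.2% higher). The split by chromosome was made after the values were seen and has no test. The count of 7 nuclear members falls to 4 without triple mutant replicate 3. The X-linked count falls from 5 to 3 without triple mutant replicate 3 and to 4 without triple mutant replicate 1 or double mutant replicate 1. It is 6 without triple mutant replicate 2, and 5 without double mutant replicate 2, the library that stood apart in tissue markers.

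**Figure D3:**
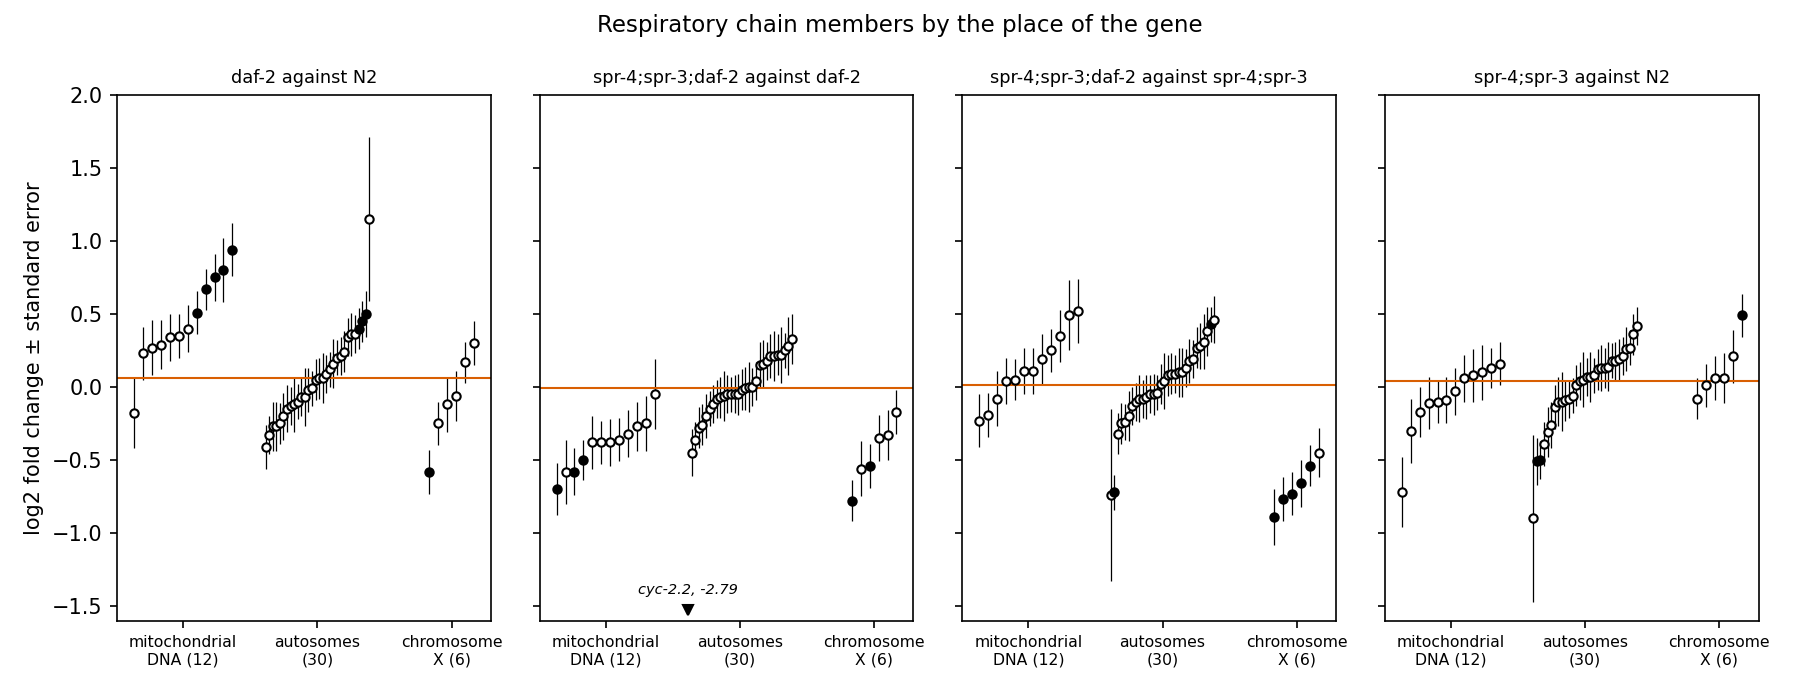
Log2 fold change ± standard error of each member in 4 comparisons, split by the place of its gene and sorted within each split. Filled points passed (edgeR adjusted p under 0.05), the orange line is the median of all tested genes, and a triangle marks cyc-2.2, which lies off the axis at -2.79. In the triple against the double mutant all 6 X-linked members lie between -0.89 and -0.45.

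The X-linked members serve complexes I, II, III and V. For gas-1, the core complex I subunit whose loss makes worms sensitive to anaesthetics and oxygen, the libraries gave 43.6, 53.7 and 40.7 CPM for N2, 63.7, 52 and 54.2 for daf-2, 65.5, 54 and 74.9 for the double mutant and 42.6, 37.8 and 36.6 for the triple mutant. All triple mutant libraries lie below both the daf-2 and the double mutant libraries, and they overlap those of N2. The gene lies on X at 15586786 to 15590397. Against the double mutant gas-1 fell by 0.73 ± 0.15 on the log2 scale (edgeR adjusted p = 0.0038). Its daf-2 effect also differed between the backgrounds (interaction -1.03 ± 0.21, edgeR adjusted p = 0.0085), a call that held under all alternatives and without any single library. For sdha-1 (X, 8542757 to 8546021), the flavoprotein subunit of succinate dehydrogenase, libraries showed 44.6, 54.1 and 40.1 CPM for N2, 53.2, 50.1 and 52.6 for daf-2, 47.9, 44.6 and 39.2 for the double mutant and 28.7, 34.2 and 27.7 for the triple mutant. The triple mutant lies below every library of the other genotypes. The falls were 0.54 ± 0.14 against the double mutant, 0.78 ± 0.14 against daf-2 and 0.62 ± 0.14 against N2 (edgeR adjusted p = 0.017, 0.0019 and 0.0051).

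In complex III, which passes electrons from ubiquinol to cytochrome c, ucr-2.1 and ucr-2.2 encode core proteins. The gene ucr-2.1 (X, 12018429 to 12021206) gave 112, 114 and 79.6 CPM for N2, 70.6, 69.5 and 63.7 for daf-2, 108, 93.6 and 107 for the double mutant and 55.2, 70.1 and 56.1 for the triple mutant. Both strains with mutated daf-2 lie below both strains without. The libraries of nuo-3, mev-1, sdhd-1, cyc-1 and atp-1 also lay lower in daf-2 against N2 without overlap, with estimates of -0.41 to -0.1 that did not pass in edgeR. Of these, DESeq2 and limma-voom called nuo-3 lower, and limma-voom also mev-1. The gene ucr-2.1 is the only nuclear member that edgeR called lower in daf-2 against N2 (-0.58 ± 0.15, adjusted p = 0.011). From the double to the triple mutant ucr-2.1 fell by 0.77 ± 0.15 (edgeR adjusted p = 0.0026). The gene ucr-2.2 (X, 15173904 to 15178145) gave 36, 36.9 and 30.5 CPM for N2, 28.6, 38.6 and 28.6 for daf-2, 45, 29.1 and 45.6 for the double mutant and 18.7, 24.8 and 21.2 for the triple mutant, which lies lowest. It fell from the double to the triple mutant by 0.89 ± 0.19 (edgeR adjusted p = 0.0043). The autosomal gene of cytochrome c1, cyc-1 (chromosome I, 8022674 to 8024422), followed a like course, with 67.8, 66.2 and 67.2 CPM for N2, 65.9, 61.7 and 60.1 for daf-2, 77.8, 72.6 and 91.5 for the double mutant and 53.9, 45.9 and 46.7 for the triple mutant. The triple mutant again lies below every other library, and cyc-1 fell by 0.72 ± 0.12 from the double to the triple mutant (edgeR adjusted p = 0.00098). Of its exon bases 4.19% are shared with another annotated gene, and the kit does not mark strand.

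In complex V, asb-2 (X, 4469766 to 4471476) encodes a b subunit of the stalk. It gave 90.8, 103 and 77.9 CPM for N2, 80.2, 61.5 and 85.9 for daf-2, 97.9, 83.3 and 102 for the double mutant and 60.5, 66.9 and 52 for the triple mutant, and fell by 0.66 ± 0.16 from the double to the triple mutant (edgeR adjusted p = 0.0093). The triple mutant lies below both strains without mutated daf-2 and overlaps daf-2. Without triple mutant replicate 3 the call for asb-2 is lost, as is that for sdha-1, which is also lost without triple mutant replicate 1 or double mutant replicate 1. The calls for gas-1, ucr-2.1, ucr-2.2 and cyc-1 in this comparison held without any single library.

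**Figure D4:**
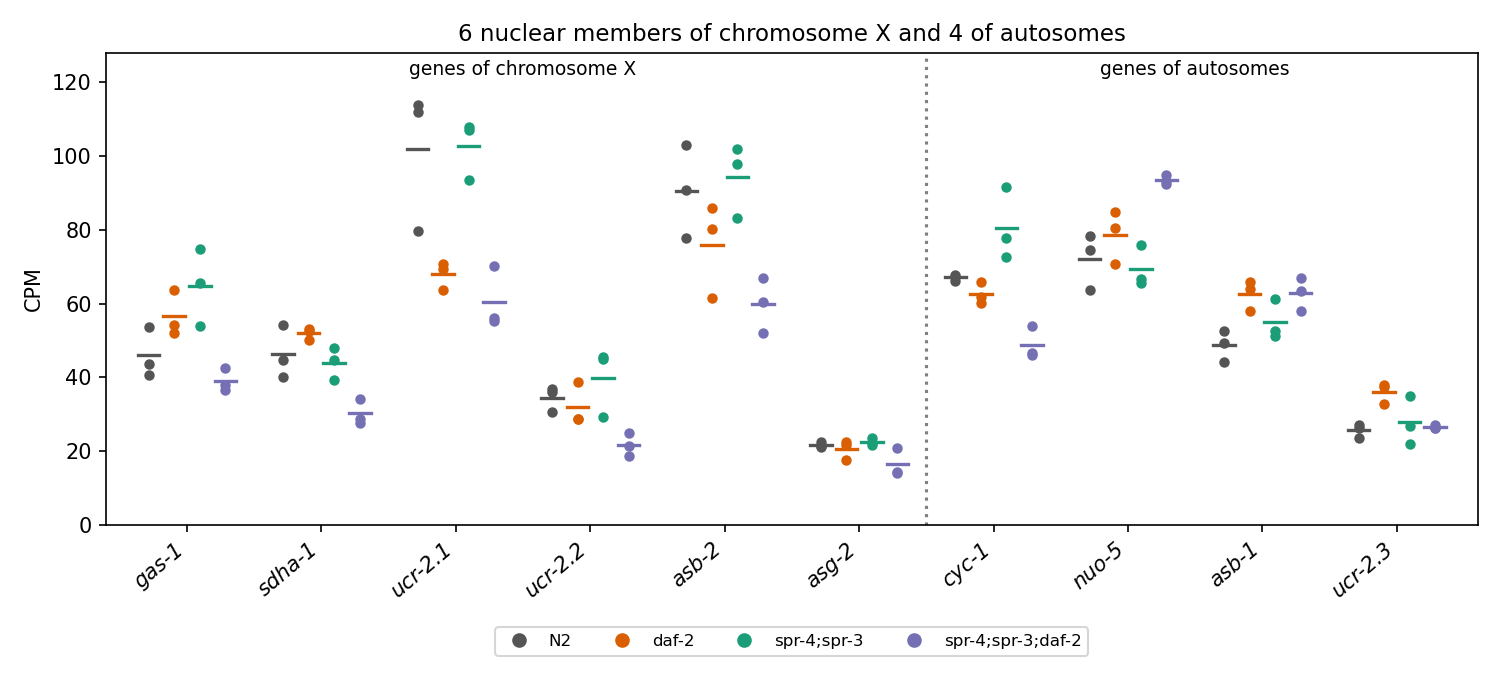
CPM of the 6 X-linked members and of 4 autosomal members. Points are libraries and bars are means of 3 replicates, coloured by genotype. For sdha-1, ucr-2.2 and cyc-1 the triple mutant lies below every other library.

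Each of the 6 X-linked members has a relative on an autosome that serves the same place in its complex, so each change is set beside that relative. Ratios of CPM per kilobase, X-linked over autosomal, were computed for pairs set after the values were seen and have no test. How the authors' counting treated reads that fit both copies is not given, so the ratios carry that uncertainty. For asb-2 over asb-1, a b subunit known for use in the germ line, the ratios were 1.5, 1.82 and 1.53 for N2, 1.09, 0.923 and 1.13 for daf-2, 1.66, 1.37 and 1.45 for the double mutant and 0.829, 0.867 and 0.781 for the triple mutant. The strains with mutated daf-2 lie below those without, and the triple mutant below daf-2. For ucr-2.2 over ucr-2.3 the means were 1.26 ± 0.0451 for N2, 0.843 ± 0.225 for daf-2, 1.39 ± 0.47 for the double mutant and 0.767 ± 0.108 for the triple mutant, and here daf-2 (up to 1.1) overlaps the double mutant (from 1.02). For ucr-2.1 over ucr-2.3 the means were 3.73 ± 0.48 for N2, 1.79 ± 0.205 for daf-2, 3.6 ± 0.895 for the double mutant and 2.16 ± 0.304 for the triple mutant (n = 3 each). Here ucr-2.3 rose in daf-2 against N2 (0.5 ± 0.16, edgeR adjusted p = 0.034) while ucr-2.1 fell, and the call for ucr-2.3 is lost without any single replicate of either genotype.

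The pair of gas-1 and nduf-2.2 gave 1.37 ± 0.194 for N2, 1.06 ± 0.13 for daf-2, 1.73 ± 0.225 for the double mutant and 0.871 ± 0.235 for the triple mutant. Its autosomal gene nduf-2.2 rose in daf-2 against N2 (0.68 ± 0.17, edgeR adjusted p = 0.0093) and was at 0.32 ± 0.17 from the double to the triple mutant (edgeR adjusted p = 0.23). For sdha-1 over sdha-2 the triple mutant stood apart at 0.539 ± 0.0645, against 0.877 ± 0.0929 for N2, 1.05 ± 0.0747 for daf-2 and 0.845 ± 0.164 for the double mutant. The gene sdha-2 itself, named after its values were seen, passed in no comparison. For asg-2 over asg-1, the g subunits of the ATP synthase, the means ran from 0.356 ± 0.0566 for the triple mutant to 0.523 ± 0.0699 for daf-2, and neither gene passed in any comparison. Germline markers moved as well. Of 9, 4 were higher and 0 lower in daf-2 against N2 (9.58% and 11% of all tested genes). In the triple against the double mutant 3 were higher and 0 lower (7.02% and 7.92% of all tested genes). Their summed level ran from 676 to 873 CPM for N2, 867 to 976 for daf-2, 696 to 829 for the double and 1030 to 1190 for the triple mutant. None was at 0 in any genotype. Of the 13 oocyte and early embryo markers 0 were higher and 5 lower from the double to the triple mutant, and of the 10 body wall muscle markers 5 were higher and 0 lower. Of the 10 intestine markers 1 was higher and 4 lower there, with ifd-2 at -2.56 ± 0.26 and act-5 at -1.75 ± 0.18 (edgeR adjusted p = 7.9e-06 and 8e-06). Their summed level, carried mainly by vit-2 and vit-6, was 5770 to 18100 CPM for the double and 19000 to 20800 for the triple mutant. The part of these tissues in the X-linked falls was not tested.

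**Figure D5:**
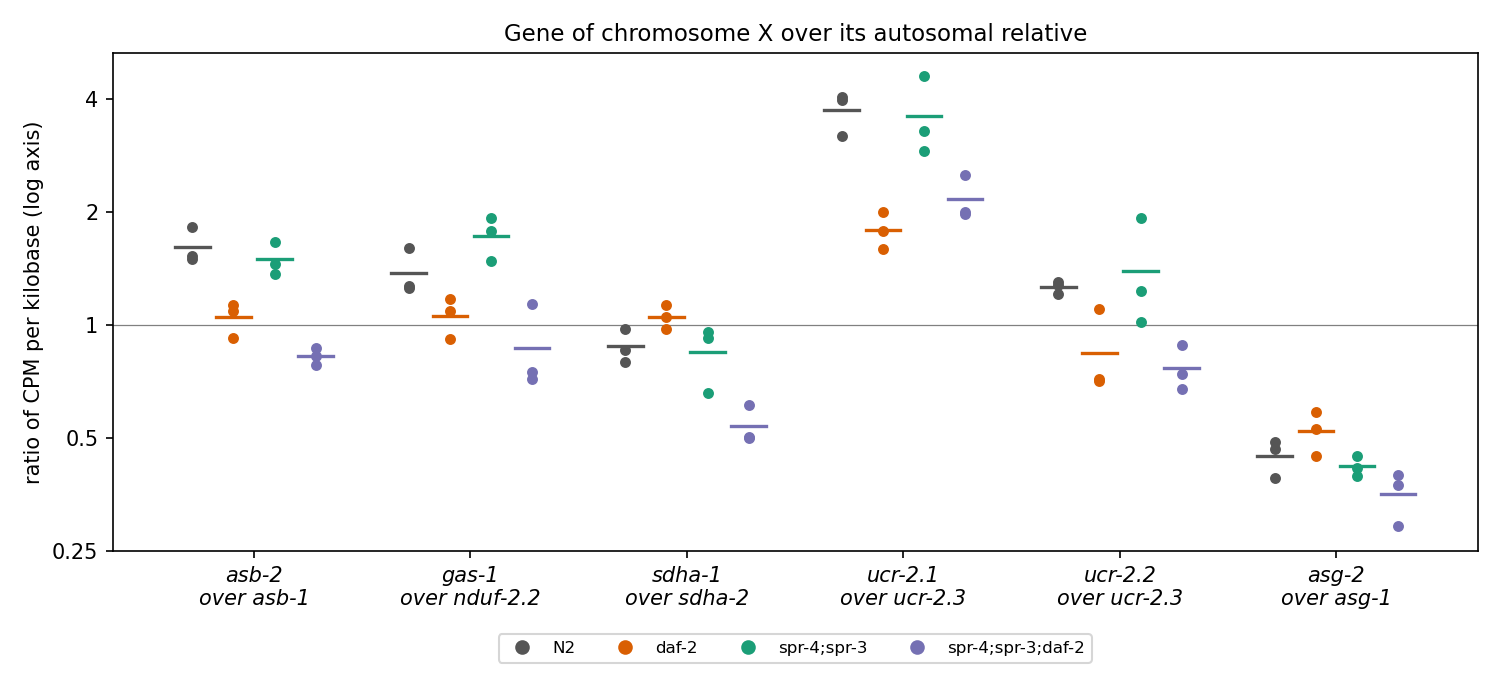
Ratio of CPM per kilobase (log axis) of each X-linked member to an autosomal relative. Points are libraries and bars are means of 3 replicates, coloured by genotype. The ratio of asb-2 to asb-1 lies at 1.37 or above in N2 and the double mutant and at 1.13 or below in daf-2 and the triple mutant.

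Autosomal members of complexes I and IV also passed, in calls that single libraries could undo. In complex I nuo-5, the large iron-sulphur subunit, gave 63.7, 78.3 and 74.4 CPM for N2, 84.9, 80.4 and 70.6 for daf-2, 66.7, 75.9 and 65.6 for the double mutant and 93.2, 94.9 and 92.5 for the triple mutant. The triple mutant lies above all others (0.43 ± 0.12 against the double mutant, edgeR adjusted p = 0.028), but the call is lost without any single replicate of the triple mutant and without replicate 1 or 3 of the double mutant. The gene nuo-1, which encodes the subunit that binds NADH, gave 77.7, 93 and 72.5 CPM for N2 and 116, 102 and 103 for daf-2 (0.4 ± 0.14, edgeR adjusted p = 0.049). In the double mutant it gave 93.4, 96 and 123 and in the triple mutant 88.8, 88.5 and 86.2. This call sits at the threshold and is lost under 4 of 7 alternatives and without 10 of 12 libraries. In complex IV cox-6A gave 82.1, 66.9 and 86.7 CPM for N2 and 113, 88.5 and 120 for daf-2 (0.45 ± 0.14, edgeR adjusted p = 0.03), a call lost without daf-2 replicate 1 or 3 or N2 replicate 1 or 2. The remaining 6 nuclear subunit genes of complex IV (cox-4, cox-5A, cox-5B, cox-6B, cox-6C and cox-7C) passed in no comparison.

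In the double mutant against N2, 1 nuclear member was higher and 2 lower, where 5.07% of all tested genes were higher and 6.61% lower. The libraries did not overlap for 5 members that were higher (14.1% of all tested genes) and 3 that were lower (14.4%). The count of 3 calls falls to 0 without replicate 1 or 3 of N2 or of the double mutant, is 1 without any library of daf-2 or the triple mutant, and is 5 without replicate 2 of the double mutant. The gene atp-1 encodes the alpha subunit of the ATP synthase. It gave 3330, 3260 and 3070 CPM for N2, 2860, 2930 and 2580 for daf-2, 1880, 2890 and 1990 for the double mutant and 2980, 3140 and 3200 for the triple mutant. Replicates 1 and 3 of the double mutant lie lowest of all libraries and replicate 2 lies among those of daf-2, the same split as in the summed muscle and intestine markers above. In this comparison 1 of 10 muscle markers was higher and 4 lower, and 0 of 10 intestine markers higher and 4 lower, and their part in the result was not tested. The log2 fold change was -0.51 ± 0.16 (edgeR adjusted p = 0.05 after rounding, just under the threshold). Without replicate 2 of the double mutant it was -0.77 (edgeR adjusted p = 0.0017), and the call is lost without any of the other 11 libraries. The gene mev-1, the cytochrome b subunit of succinate dehydrogenase, gave 69.2, 63.3 and 65.2 CPM for N2, 52.8, 51.5 and 52.6 for daf-2, 39.7, 54.6 and 45.7 for the double mutant and 45.8, 54.5 and 48.4 for the triple mutant. All mutant libraries lie below N2, and it passed in the double mutant (-0.5 ± 0.13, edgeR adjusted p = 0.024) and the triple mutant (-0.41 ± 0.13, 0.035) but not in daf-2 (-0.33 ± 0.13, 0.088). In daf-2 against N2 limma-voom did call mev-1 lower (-0.34, limma-voom adjusted p = 0.035). The edgeR calls of mev-1 in the double and the triple mutant are lost without replicate 1 or 3 of N2, or without replicate 1 or 3 of the mutant concerned. The third call, gas-1 (0.49 ± 0.15, edgeR adjusted p = 0.043), is lost without any of 10 of the 12 libraries.

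The triple mutant against daf-2 called 0 of 36 nuclear members higher and 3 lower, against 6.76% and 6.65% of all tested genes. The libraries did not overlap for 3 that were higher (17.9% of all tested genes) and 7 that were lower (18.1%). The 3 called are gas-1 (-0.54 ± 0.15, edgeR adjusted p = 0.026), sdha-1 as above and cyc-2.2. The call for gas-1 is lost without daf-2 replicate 1 or 3 or triple mutant replicate 2 or 3. Of the cytochrome c genes cyc-2.1 is the main form, with 186 to 338 CPM over the 12 libraries, and passed in no comparison. The gene cyc-2.2 gave only 0.675, 1.18 and 2.07 CPM for N2, 2.28, 2.58 and 3.86 for daf-2, 1.01, 0.695 and 0.408 for the double mutant and 0.44, 0.656 and 0.167 for the triple mutant. Its daf-2 libraries lie above all others, and the triple mutant differed from daf-2 by -2.79 ± 0.6 on the log2 scale (edgeR adjusted p = 0.0058), a value from few reads. In the triple mutant against N2 (10.8% of all tested genes higher, 11.3% lower) 2 nuclear members were higher and 6 lower. The libraries did not overlap for 4 that were higher (19.8% of all tested genes) and 8 that were lower (19.1%). The 6 are sdha-1, mev-1, cyc-1 (-0.46 ± 0.12, edgeR adjusted p = 0.014), ucr-2.1 (-0.75 ± 0.15, 0.0017), ucr-2.2 (-0.67 ± 0.19, 0.015) and asb-2 (-0.6 ± 0.16, 0.011). The 2 that rose are nuo-5 (0.38 ± 0.12, 0.04) and asb-1 (0.37 ± 0.13, 0.046), of which nuo-5 is lost without 10 of 12 libraries and asb-1 without any of them. The count of 8 falls to 3 without triple mutant replicate 3, to 4 without triple mutant replicate 1 and to 5 without N2 replicate 3. Of the 6 X-linked members 0 were higher and 4 lower, where 2.97% of tested X-linked genes were higher and 19.7% lower. Of the 30 autosomal members 2 were higher and 2 lower, a smaller share than among all tested autosomal genes, of which 12.2% were higher and 10.1% lower.

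Counts of nuclear members per length, with the limit given above for capture, are led by atp-1. In N2 it had 1590 ± 65.5 CPM per kilobase, against 207 ± 33.5 for atp-2, the beta subunit that pairs with it in equal number in the enzyme, and 213 ± 18.6 for atp-3. Next came nuo-3 with 654 ± 50.8, which is uncertain because 72.6% of its exon bases also belong to another gene annotated on the same strand. The other nuclear members, cyc-2.1 (491 ± 72.7) apart, lay below atp-3, down to 18.9 ± 1.31 for ucr-2.3 and 2.99 ± 1.62 for cyc-2.2. Members with no call in any comparison of the main edgeR fit include atp-2, atp-3, atp-4 and atp-5 of the ATP synthase, isp-1 (the Rieske protein) and ucr-1 of complex III, sdhb-1 and sdhd-1 of complex II, and nuo-2, nuo-3, nuo-4, nuo-6 and lpd-5 of complex I.

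Genes around the chain were read from lists. Ubiquinone carries electrons between the complexes, and in daf-2 against N2 3 of 8 genes of its synthesis were higher and 0 lower. Of all tested genes 9.58% were higher and 11% lower in that comparison. The polyprenyl synthase gene coq-1 went from a mean of 27 to 59.5 CPM (1.14 ± 0.13, edgeR adjusted p = 9.1e-06) and the prenyltransferase gene coq-2 from 21.4 to 43.1 (1.01 ± 0.13, 3.5e-05). Both effects differed between the backgrounds (interaction -0.99 ± 0.18 and -0.94 ± 0.18, edgeR adjusted p = 0.0039 and 0.0057). Of 6 genes of ATP/ADP carriers and ATP synthase inhibitors 3 were higher and 0 lower in daf-2, led by the carrier gene ant-1.3 (4.5 to 12.5 CPM, 1.46 ± 0.27, edgeR adjusted p = 0.001). The summed level of the list went the other way, from 4500 to 5000 CPM over the N2 libraries to 3600 to 3720 over those of daf-2, with no test of the sum. Most of that sum comes from the carrier gene ant-1.1, which had a mean of 4670 CPM for N2. Of 8 genes of mitochondrial DNA maintenance and transcription 1 was higher, the DNA polymerase gene polg-1 (0.91 ± 0.21, edgeR adjusted p = 0.0045), and 1 lower, tfbm-1 (-0.63 ± 0.18, 0.017). 

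Lists with more members moved little in daf-2 against N2. Of 29 other respiratory chain subunits, none of them on chromosome X, 2 were higher and 0 lower. Of 21 assembly factors 2 were higher and 0 lower, of 69 mitochondrial ribosomal proteins 2 and 0, and of 16 genes of the tricarboxylic acid cycle 1 and 0, each a smaller share than the 20.6% of all tested genes. In the triple against the double mutant 1 of the cycle's 16 genes was higher and 4 lower, a larger share than the 14.9% of all tested genes. They include suca-1 (-0.66 ± 0.13, edgeR adjusted p = 0.0022), a succinyl-CoA ligase subunit, and the aconitase gene aco-2 (-0.52 ± 0.15, 0.025). The other subunits were 0 higher and 1 lower there and the ribosomal proteins 2 and 1.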

How the data were processed

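Sequencing of whole-worm RNA from 100 worms per strain used SMART-Seq v4 cDNA from 2 ng of RNA, sheared to a mean of 150 bp and read as pairs of 75 bp, per the labels' protocols. The kit marks neither strand nor single molecules. How evenly it captured mitochondrial and nuclear transcripts was not tested. The authors deposited whole-number counts per gene with no normalization, made with STAR (version not given) and featureCounts 1.5.1 on WBcel235, per the submitters' processing notes. No source used here gives the annotation release, the strand setting or the treatment of multi-mapped reads, and 0 columns of other samples were found.

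Members were matched by symbol, the 12 mitochondrial DNA genes by overlap with RefSeq genes of the same build. Positions and exon lengths come from Ensembl release 115. Counts were fitted with edgeR 4.0.16 (R 4.3.3, glmQLFit robust, TMM, filterByExpr with minimum count 10 and minimum total 15, which kept 18342 genes) to all 12 libraries, each genotype having its own coefficient, after a test on simulated data. Benjamini-Hochberg adjustment ran over every tested gene, calls were made under 0.05, and standard errors are the log2 fold change over the square root of F. Alternatives were DESeq2 1.42.0, its size factors, limma-voom (limma 3.58.1) with quality weights, scaling by nuclear genes only, no filter on low counts, only the groups compared, the replicate number as a block, and each library left out. All members could be named, and of each list up to 4 genes past the threshold with the largest changes. Members and lists were chosen with earlier results of these data known. The depth limits the precision of low genes such as cyc-2.2.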

Additional observations from a re-analysis of the deposited data

Results flagged for a closer look

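For 4 of the 36 nuclear members (11.1%) the effect of daf-2 differed between the backgrounds by the interaction term of the edgeR fit. Of all tested genes 8.32% were called by it, 4.89% higher and 3.43% lower. The log2 difference, the daf-2 effect with spr-3 and spr-4 mutated minus that with them intact, was -1.03 for gas-1 (adjusted p = 0.0085), -0.71 for sdha-1 (0.039), -0.62 for cyc-1 (0.037) and -0.65 for nuo-1 (0.05 after rounding). Their own daf-2 effects against N2 were 0.3, 0.17, -0.1 and 0.4, and those in the triple against the double mutant -0.73, -0.54, -0.72 and -0.25. The call for gas-1 held without any single library. The call for sdha-1 is lost without 9 of the 12 libraries, that for cyc-1 without 10 and that for nuo-1 without 10. Without replicate 2 of the double mutant 8 nuclear members pass this test, and all tested genes called go from 1526 to 2505.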

How the results depend on the processing

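Of 37 calls of members in the 6 comparisons 13 held under every alternative and every left-out library, 14 were lost under some alternative other than leaving out a library, 24 without some library, and 0 reversed direction. With ribosomal RNA genes left out of the total, the share of the mitochondrial DNA members moved by less than the spread between replicates. Leaving out 1 of 3 replicates cannot move a mean by more than that spread, so it does not check the shares and ratios. Leaving atp-1 out of the nuclear sum was a choice added after seeing the data. It moved the ratio by more than the spread between replicates, from 1.34, 1.11 and 1.36 to 2.51, 2.12 and 2.58 for N2. In each case below the cause was not tested. Counts over all tested genes are given for only some settings. Elsewhere the member counts cannot be set against the share of all genes that the setting called. Without the filter on low counts the nuclear members called fell to 2 in daf-2 against N2 and to 5 in the triple mutant against N2, and mitochondrial DNA members rose to 2 in the triple against the double mutant and to 1 in the double mutant against N2. With DESeq2 the double mutant against N2 called 1 mitochondrial DNA and 5 nuclear members, the triple mutant against daf-2 called 6 nuclear members, and the interaction called 2, 7 and 2329 (mitochondrial DNA, nuclear, all genes). With limma-voom daf-2 against N2 called 10 nuclear members, the double mutant against N2 called 5, the triple mutant against daf-2 called 6 mitochondrial DNA and 7 nuclear members and 3968 genes in all (2460 by edgeR), and the interaction 1 mitochondrial DNA and 7 nuclear members. With only the groups compared the double mutant against N2 called 0 nuclear members and 983 genes (2142 with all libraries), and the triple mutant against daf-2 called 5 nuclear members. Deviations of same-numbered libraries correlated at -0.15 to 0.13 (18 pairs), against -0.13 to 0.16 in 36 other pairs. Only 2 of 12 libraries were closest to their own number. These values cannot show whether same-numbered libraries were grown or processed together. With the replicate block 2 nuclear members passed in daf-2 against N2, 1 in the double mutant against N2 and 2 in the interaction.

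Leaving out each library, the calls among mitochondrial DNA members, nuclear members and all tested genes ranged as follows. They ran from 3 to 5, 1 to 5 and 2599 to 4132 in daf-2 against N2. In the triple against the double mutant they were 0 in each case, 4 to 9 and 1582 to 3303. The double mutant against N2 gave 0 to 1, 0 to 5 and 943 to 3139. The triple mutant against daf-2 gave 0 to 4, 2 to 4 and 1376 to 2841. The triple mutant against N2 gave 0, 3 to 8 and 2931 to 4313. The interaction gave 0 to 1, 1 to 8 and 772 to 2505. For the X-linked members, a split added after seeing the data, the count lower in the triple against the double mutant was 6 with limma-voom and 5 under each other setting that kept all libraries. Depth ran from 11892808 to 46493665 counts.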

Other observations

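Lists of genes around the chain were also read in the remaining comparisons. In the triple mutant against N2 (22.2% of all tested genes called by edgeR) 4 of 8 genes of ubiquinone synthesis were higher and 0 lower, among them coq-8 (0.75 ± 0.19, adjusted p = 0.0093) and coq-2 (0.66 ± 0.13, 0.0014). Of 29 other subunits 4 were higher and 0 lower, of 69 mitochondrial ribosomal proteins 7 and 0, and of 21 assembly factors 3 and 0, among them bcs-1 (0.73 ± 0.18, adjusted p = 0.008). The tricarboxylic acid cycle was mixed, with 2 of 16 genes higher and 4 lower. The ATP/ADP carrier genes ant-1.4 and ant-1.3 rose from 2.66 to 11.6 and from 4.5 to 17.8 CPM in the mean (edgeR adjusted p = 5.4e-05 and 7.1e-05), and both also rose from the double to the triple mutant (1.5 ± 0.28 and 1.09 ± 0.26, 0.0017 and 0.01).

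In the double mutant against N2 (11.7% called) the carrier gene ant-1.1 had a mean of 3330 CPM against 4670 (-0.49 ± 0.15, edgeR adjusted p = 0.043), and the fumarase gene fum-1 one of 200 against 285 (-0.51 ± 0.15, 0.034). In the triple mutant against daf-2 (13.4% called) coq-1 had 36.7 against 59.5 CPM in the mean (-0.7 ± 0.13, edgeR adjusted p = 0.0018). In that comparison the counts higher and lower were 0 and 1 of 29 other subunits and 0 and 1 of 16 genes of the tricarboxylic acid cycle.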
